A study of Mus musculus with 4 samples.

Results

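Interferon-stimulated genes are the transcripts that cells raise when an interferon binds its receptor. A list of 46 of them was read from the RNA sequencing of 4 mouse livers, and all 46 symbols were found, each once, among the 21959 gene IDs of the table. Of these, 2 livers came from wild-type (WT) mice in acute-on-chronic liver failure (ACLF), an acute injury on top of chronic liver disease, and had received baicalein, a flavone from the root of Scutellaria baicalensis. The 2 livers they were set against came from WT mice in ACLF that had received saline, so all 4 livers share the failure model. The labels give no way of inducing ACLF, dose, time of collection, age or sex, no healthy liver was analysed here, and nothing says that each liver is a separate animal. The p-values therefore reflect spread between 4 samples that may be technical.

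Interferons are secreted signals of antiviral and antibacterial defence. Type I interferons act through the receptor chains IFNAR1 and IFNAR2 and the kinases JAK1 and TYK2, which activate a complex that holds STAT2 and IRF9 and binds the interferon-stimulated response element (ISRE). Interferon gamma acts through IFNGR1 and IFNGR2 and mainly on genes with a gamma-activated site (GAS). In liver, hepatocytes, Kupffer cells, endothelial cells and lymphocytes can all express such genes.

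Deposited counts summed to 14766061 and 18731616 in baicalein livers 1 and 2, and to 17673137 and 13976440 in saline livers 1 and 2. The groups also differed in Y-linked transcripts. Ddx3y, Kdm5d, Eif2s3y and Uty together had 2 and 1 counts in baicalein livers and 820 and 836 in saline livers, so treatment cannot be told apart from this difference in any result given here. A list of 12 skeletal muscle genes summed to 0.962 CPM (read counts scaled to an equal library total) in baicalein 1, 2121 CPM in baicalein 2, 6364 CPM in saline 1 and 1.46 CPM in saline 2, so 1 liver of each group carried muscle transcripts. Hepatocyte markers were abundant in all 4 livers, as the tissue label states, with 6 genes summing to 75570 to 111600 CPM, while none of 11 tested muscle genes passed the test between the groups.

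Of the 46 members, 3 of 4 guanylate-binding proteins, 5 of 6 oligoadenylate synthetases and the factors Irf1 and Irf8 rose in baicalein livers. Other general markers of an interferon response were divided. Ifit3 and Ifi44 rose, while Isg15, Mx1, Rsad2 and Usp18 did not pass the test. Isg15 and Mx1 were still higher in both baicalein livers than in both saline livers, and Rsad2 and Usp18 overlapped between groups. All 46 members had enough counts to be tested. Of them 14 rose, 2 fell and 30 did not pass (edgeR quasi-likelihood test, adjusted p below 0.05). Over all 12657 genes tested, 15.5% were called in either direction, 7.65% higher and 7.9% lower, against 30.4% of the members called higher. The members were chosen with earlier results of these data known, so this contrast may in part follow from the choice. The CPM of the groups did not overlap for 30 members that were higher and 6 that were lower, where 59.2% of all genes did not overlap, with 29.7% of all genes higher and 29.5% lower. The median log2 fold change was 0.30 over the members and 0.01 over all genes, with a range among members of -0.78 to 1.54. Among the 14 that rose, 9 did so by at least 1 on the log2 scale.

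**Figure D1:**
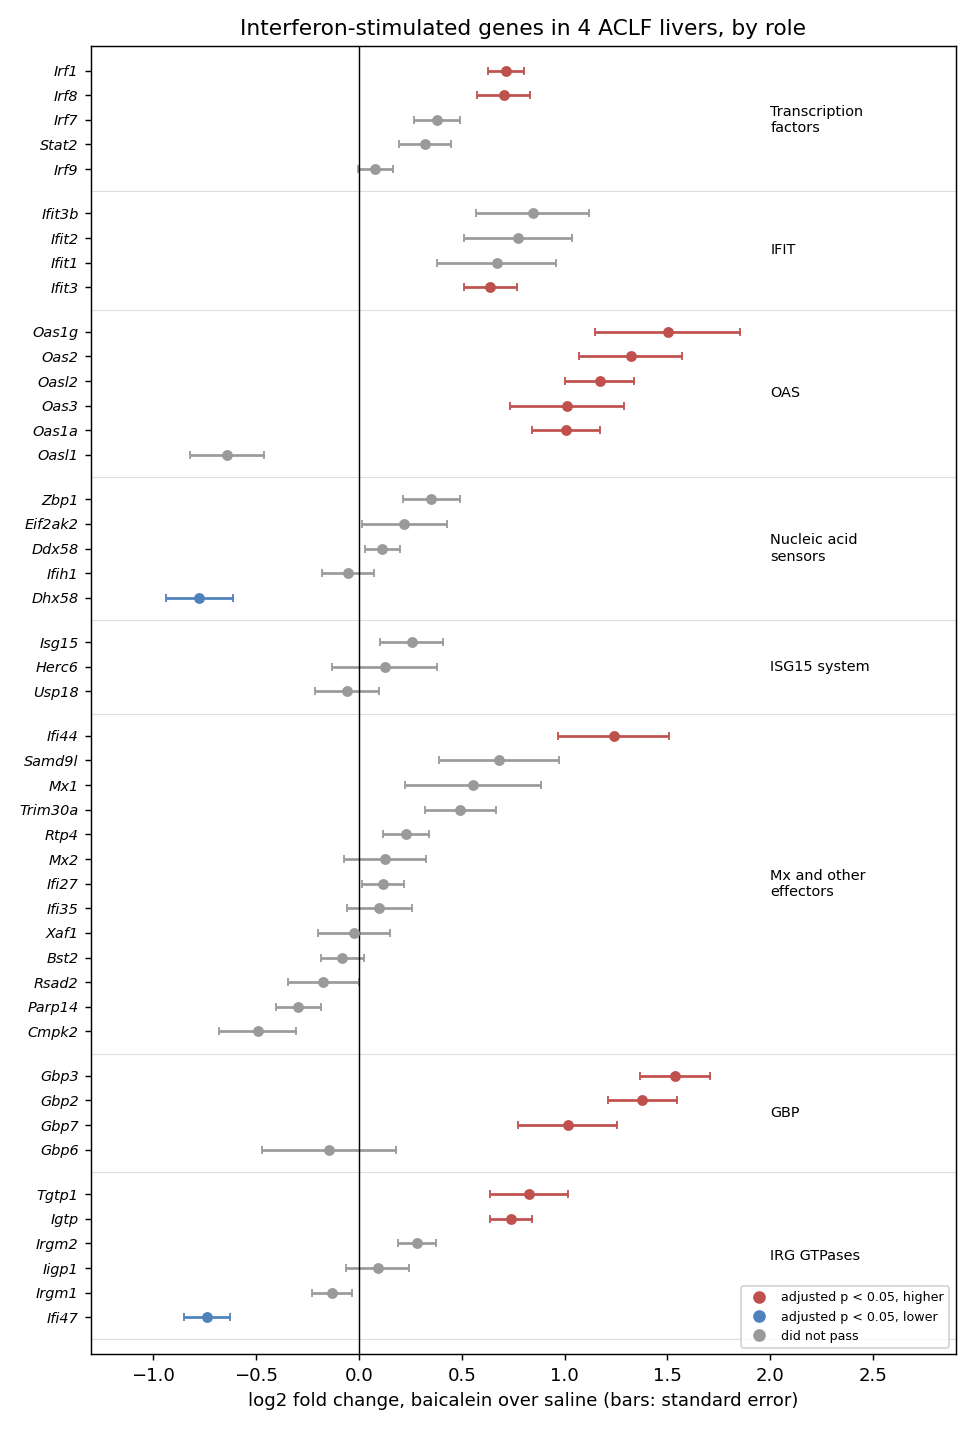
Log2 fold change (baicalein over saline, x axis) of each of the 46 members, grouped by role, with bars for the standard error of the fit. Red points passed higher, blue points passed lower and grey points did not pass at an adjusted p of 0.05. The GBP and OAS groups hold 8 of the 14 members that rose, and Dhx58 and Ifi47 are the 2 that fell.

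Kupffer and sinusoidal endothelial cell markers were higher in baicalein livers, as were the members that rose. The 7 Kupffer cell markers summed to 833 and 714 CPM in baicalein livers and 476 and 405 CPM in saline livers, and all 7 rose. The 7 sinusoidal endothelial markers summed to 510 and 520 CPM with baicalein and 356 and 316 CPM with saline, and 6 of them rose. The 10 T and NK cell markers summed to 16.8 and 14.5 CPM with baicalein and 8.98 and 8.81 CPM with saline, and of 8 tested 1, Gzma, rose. The 6 hepatocyte markers summed to 111600 and 94730 CPM with baicalein and 79450 and 75570 CPM with saline, and 2 of them, Alb and Cps1, rose. Alb made up most of that sum, Apoa1, Serpina1a and Ttr had log2 fold changes of -0.48, -0.38 and -0.08 and did not pass, and the median of the 6 was -0.03. No marker of these lists was at 0 in all livers. Their part in the result was not tested, and in bulk tissue more cells of a type and more RNA per cell cannot be told apart.

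Promoters of the members with the smallest p are shown because most of them hold a letter match to one of the 2 interferon elements. RefSeq windows (GRCm38.p6, 250 bases before to 50 after a gene's start) exist for 35 of the 46 members, 6 of them with 2 starts. Windows were searched for GAAANNGAAA as the ISRE (TTTCNNTTTC on the other strand) and for TTCNNNGAA as the GAS, which reads alike on both strands. The stretches run 5′ to 3′ on the gene's strand and capitals mark the matches, which can overlap where an ISRE repeats. In 1 member an ISRE match overlapped a GAS match, and none of the stretches shown is from it. They are those of Gbp3 (chr3:142559969-142560044, plus strand), Gbp2 (chr3:142620574-142620643, plus), Irf1 (chr11:53769894-53769962, plus), Igtp (chr11:58199481-58199561, plus), Oas1a (chr5:120907500-120907653, minus) and Irf8 (chr8:120736157-120736243, plus).
Gbp3: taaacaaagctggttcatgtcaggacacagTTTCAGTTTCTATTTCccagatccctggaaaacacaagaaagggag
Gbp2: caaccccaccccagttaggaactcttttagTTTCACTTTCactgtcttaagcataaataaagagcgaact
Irf1: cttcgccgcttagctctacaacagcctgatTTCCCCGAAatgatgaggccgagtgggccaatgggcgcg
Igtp: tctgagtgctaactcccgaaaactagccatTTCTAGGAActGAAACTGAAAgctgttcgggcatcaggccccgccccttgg
Oas1a: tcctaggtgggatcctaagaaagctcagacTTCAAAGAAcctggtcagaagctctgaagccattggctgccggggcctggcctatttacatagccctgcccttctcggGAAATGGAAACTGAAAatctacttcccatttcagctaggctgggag
Irf8: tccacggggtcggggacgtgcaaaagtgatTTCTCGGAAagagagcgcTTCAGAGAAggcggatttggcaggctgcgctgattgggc
Gbp2 and Gbp3 held ISRE matches only, Irf1 and Irf8 GAS matches only, and Igtp and Oas1a both kinds, while the windows of Oasl2 and Ifi47 held neither run of letters.

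An ISRE match was present for 21 of the 35 members with a window, against 3.99% of the 27025 genes in the RefSeq table. A GAS match was present for 11 members (31.4%), against 9.55% of those genes. Among members that rose, 9 of 13 with a window held an ISRE match and 6 held a GAS match, and among members that did not pass the numbers were 12 and 5 of 21. The median log2 fold change was 0.64 over members with an ISRE match, with a range of -0.17 to 1.54, and 0.25 over those without, with a range of -0.74 to 1.24. The ranges of members with and without a match thus overlapped widely. Isg15 had 3 ISRE matches, the most of any member, and did not pass. A match is a run of letters and was not shown to be bound.

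Interferon genes themselves were hardly detected. Of 11 ligand genes of the type I, II and III families, 9 had no count in any liver. Ifng, encoding interferon gamma, had 1 and 0 counts in baicalein livers and 2 and 0 in saline livers, and Ifnk had 1 and 0 against 1 and 0. A count of 0 allows up to 3 counts, or 0.160 to 0.203 CPM in the baicalein libraries and 0.170 to 0.215 CPM in the saline libraries, so differences among ligands were not detectable at this depth.

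Of 5 tested receptor genes, Ifngr2, a chain of the interferon gamma receptor, fell. It stood at 24.7 and 24.1 CPM in baicalein livers, against 37.3 and 32.0 CPM in saline livers (log2 fold change -0.51, SE 0.12, edgeR adjusted p = 0.0198). Ifngr1, the other chain, was at 39.6 and 42.7 CPM with baicalein and 34.9 and 31.1 CPM with saline (edgeR adjusted p = 0.0741) and did not pass. The type I receptor genes Ifnar1 and Ifnar2 overlapped between groups, Ifnar1 at 53.1 to 55.3 CPM with baicalein and 52.7 to 57.0 CPM with saline, and Ifnar2 at 29.95 to 37.9 CPM against 30.5 to 33.3 CPM. Il10rb, a shared chain of the type III receptor, had a log2 fold change of 0.60 (edgeR adjusted p = 0.143). The Ifngr2 call was lost with limma-voom and without saline 1, baicalein 1 or baicalein 2 (edgeR adjusted p up to 0.145 with a liver left out).

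The receptor kinase genes did not pass. Jak1, which serves both interferon routes, had a log2 fold change of 0.02 (SE 0.09, edgeR adjusted p = 0.906). Jak2, a kinase of the interferon gamma receptor, was at 9.48 and 10.8 CPM in baicalein livers and 9.63 and 8.89 CPM in saline livers, so the groups overlapped (edgeR adjusted p = 0.668). Tyk2, a kinase of the type I receptor, was at 33.0 and 32.4 CPM with baicalein and 34.1 and 35.5 CPM with saline (log2 fold change -0.09, edgeR adjusted p = 0.609).

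Among 17 tested genes that sense nucleic acids or pass the signal on to interferon genes, 3 rose and 1 fell. Ikbke, a kinase that activates IRF3 and IRF7, rose to 39.9 and 32.7 CPM in baicalein livers, against 16.6 and 17.8 CPM in saline livers (log2 fold change 1.08, SE 0.13, edgeR adjusted p = 9.43e-04). Tlr7, an endosomal receptor for single-stranded RNA, had a log2 fold change of 1.28 (SE 0.35) and Mavs, the mitochondrial adaptor of RIG-I, of 0.36 (SE 0.10). Trim25, a ubiquitin ligase of the RIG-I route, fell by 0.49 on the log2 scale (SE 0.10). The Ikbke call held in every alternative run. Tlr7 and Mavs did not pass with any 1 liver left out (edgeR adjusted p up to 0.220 and 0.221) or with limma-voom, and Tlr7 not with DESeq2, while Trim25 was lost without saline 1 or saline 2 (up to 0.0943).

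Of 9 tested inhibitors of interferon signalling, 2 fell and 1 rose (edgeR adjusted p below 0.05). Socs3, a feedback inhibitor of JAK kinases, fell to 13.9 and 11.6 CPM in baicalein livers, against 19.4 and 24.3 CPM in saline livers (log2 fold change -0.78, SE 0.16). Irf2bp2, a corepressor that binds IRF2, fell by 0.79 on the log2 scale (SE 0.12), and Ptpn6, the phosphatase SHP-1 of blood cells, rose with a log2 fold change of 0.42 (SE 0.12). The Irf2bp2 call held in every alternative. Socs1 and Trex1 had too few counts to be tested. Over receptors, kinases, induction genes and inhibitors together, of 36 tested genes 4 rose and 4 fell, and the median log2 fold change was 0.10. That is 11.1% called higher and 22.2% called in either direction, against 7.65% and 15.5% of all genes tested. The counts are small and are not read as a result about the pathway. Socs3 was lost without saline 2 or baicalein 2 (edgeR adjusted p up to 0.104), and Ptpn6 with any 1 liver left out (up to 0.207), with DESeq2 and with limma-voom.

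The members include 5 transcription factors, of which 2 rose. Irf1 (chromosome 11, 53770014 to 53778374, mm10), a factor that interferon gamma induces through a GAS, had 824 and 1118 counts in baicalein livers and 588 and 465 in saline livers. In CPM these were 56.6 and 55.7 with baicalein and 34.5 and 33.9 with saline, so the livers of a group lay close together and the groups were far apart. The log2 fold change was 0.715 (SE 0.09, edgeR adjusted p = 0.00103), and the call held in every alternative. Irf8 (chromosome 8, 120736358 to 120756694), a factor that myeloid cells need, was at 17.9 and 19.1 CPM with baicalein and 11.6 and 11.1 CPM with saline (log2 fold change 0.70, SE 0.13, edgeR adjusted p = 0.00741).

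Irf7, which drives the genes of type I interferons, was at 70.3 and 59.6 CPM in baicalein livers and 53.0 and 46.8 CPM in saline livers (log2 fold change 0.38, edgeR adjusted p = 0.0546), just outside the threshold. Stat2 and Irf9 encode parts of the ISRE-binding complex. Stat2 was at 93.9 and 78.3 CPM with baicalein and 62.9 and 74.9 CPM with saline (edgeR adjusted p = 0.133). Irf9 was at 55.5 and 56.4 CPM with baicalein and 53.9 and 51.9 CPM with saline, a log2 fold change of 0.08 (edgeR adjusted p = 0.595). All 5 factors were higher in both baicalein livers than in both saline livers, though 3 of these differences did not pass. Of all genes tested, 29.7% were higher in this way. Irf8 missed the threshold when baicalein 1 or baicalein 2 was left out (edgeR adjusted p = 0.0504 and 0.0690), and Irf7 passed when baicalein 2 was (0.0469).

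The guanylate-binding proteins, GTPases that interferon gamma strongly induces and that attack vacuoles holding microbes, had the highest median log2 fold change of the 8 roles, 1.196. Gbp3 (chromosome 3, 142560026 to 142573209), with the overlapping ISRE matches printed above, had 214 and 289 counts in baicalein livers and 91 and 64 in saline livers. Its level was 14.7 and 14.4 CPM with baicalein and 5.34 and 4.66 CPM with saline. The 2 baicalein livers were nearly equal, and the log2 fold change of 1.54 (SE 0.17, edgeR adjusted p = 5.61e-04) was the highest of the 46 members.

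Gbp2 (chromosome 3, 142620602 to 142638008) had 213 and 367 counts with baicalein and 109 and 86 with saline. It stood at 14.6 and 18.3 CPM in baicalein livers and 6.40 and 6.26 CPM in saline livers (log2 fold change 1.38, SE 0.17, edgeR adjusted p = 9.87e-04). Gbp7, their neighbour on chromosome 3 (142530342 to 142550149), was at 6.80 and 7.67 CPM with baicalein and 3.88 and 3.28 CPM with saline (log2 fold change 1.01, SE 0.24, edgeR adjusted p = 0.0224). Gbp6, which lies on chromosome 5 (105270702 to 105293698), was at 2.61 and 3.79 CPM with baicalein and 3.88 and 3.21 CPM with saline, so its groups overlapped (edgeR adjusted p = 0.825). GENCODE M21 lists the gene Gm43302, with no count in any liver, on the same strand over 22994 bases of Gbp6. Among 7 further genes of the family, Gbp9 and Gbp11 rose, while Gbp2b, Gbp4, Gbp5, Gbp8 and Gbp10 did not pass, with log2 fold changes of -0.02 (Gbp10) to 0.98 (Gbp4). Gbp2 and Gbp3 held in every alternative, whereas Gbp7 did not pass with any 1 liver left out (edgeR adjusted p up to 0.146) or with DESeq2 (0.0684). Genes of this family are alike in sequence, and the sources used here do not say how shared reads were counted.

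The immunity-related GTPases, which work beside the guanylate-binding proteins on the same vacuoles in mouse, were divided. Igtp (chromosome 11, 58199556 to 58207591), a regulatory member also called Irgm3, was at 85.6 and 78.4 CPM in baicalein livers and 51.8 and 46.3 CPM in saline livers (log2 fold change 0.74, SE 0.10, edgeR adjusted p = 0.00174). Tgtp1, an effector member, was at 13.1 and 10.8 CPM with baicalein and 7.40 and 6.05 CPM with saline (log2 fold change 0.83, SE 0.19, edgeR adjusted p = 0.0197). Both genes thus rose. Tgtp2, outside the 46 and near Tgtp1 on chromosome 11, overlapped between groups and did not pass (log2 fold change 0.42, edgeR adjusted p = 0.457). It was at 3.4 and 4.5 CPM with baicalein and 3.5 and 2.4 CPM with saline. The sources used here do not say how any reads shared between Tgtp1 and Tgtp2 were counted.

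Ifi47 (chromosome 11, 49076587 to 49096974), also an effector GTPase and close to Tgtp1 on the chromosome, went the other way. It had 480 and 558 counts with baicalein and 829 and 723 with saline, or 33.0 and 27.8 CPM in baicalein livers and 48.7 and 52.7 CPM in saline livers (log2 fold change -0.74, SE 0.11, edgeR adjusted p = 0.00267). Irgm2 and Irgm1 are regulators that guard the cell's own membranes. Irgm2 was at 133 and 138 CPM with baicalein and 110 and 113 CPM with saline (edgeR adjusted p = 0.0770), and Irgm1 at 84.9 and 86.0 CPM against 97.6 and 89.3 CPM (edgeR adjusted p = 0.425). Iigp1, an effector, overlapped between groups at 212 and 192 CPM with baicalein and 162 and 218 CPM with saline.

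Igtp and Ifi47 held in every alternative, and Tgtp1 did not without saline 2, baicalein 1 or baicalein 2 (edgeR adjusted p up to 0.166), nor with DESeq2 or limma-voom (0.0732 and 0.0636). In GENCODE M21 the gene bodies of Igtp and Irgm2 share 7974 bases on the same strand, Tgtp1 shares bases with Gm12185 and Ifi47 with Olfr56, so reads of such pairs could be split. Olfr56 had 3 and 0 counts with baicalein and 10 and 0 with saline, and Gm12185 had 0 and 11 against 5 and 3, both far below their neighbours.

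Oligoadenylate synthetases make short adenylate chains that switch on the RNA-cutting enzyme RNase L when double-stranded RNA is present, and 5 of the 6 members of this family rose. Of the same family outside the 46, Oas1b (log2 fold change 0.27, edgeR adjusted p = 0.720) and Oas1c (-0.01, 0.990) were tested and did not pass, and Oas1f and Oas1h had too few counts to be tested. Oasl2 (chromosome 5, 114896936 to 114912234), an OAS-like gene, had 292 and 552 counts in baicalein livers and 184 and 142 in saline livers. Its level was 20.1 and 27.5 CPM with baicalein and 10.8 and 10.3 CPM with saline (log2 fold change 1.17, SE 0.17, edgeR adjusted p = 0.00238). The baicalein livers differed more from each other than the saline livers did, and the groups stayed apart.

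Oas1a (chromosome 5, 120896256 to 120907521) was at 12.2 and 12.3 CPM with baicalein and 6.28 and 5.90 CPM with saline (log2 fold change 1.01, SE 0.17, edgeR adjusted p = 0.00436). Its neighbour and close copy Oas1g had 53 and 84 counts with baicalein and 21 and 21 with saline (log2 fold change 1.501, SE 0.35, edgeR adjusted p = 0.0218), and reads shared between the 2 copies make either value uncertain. Oas2 was at 9.34 and 9.92 CPM with baicalein and 3.05 and 4.66 CPM with saline (log2 fold change 1.32, SE 0.25, edgeR adjusted p = 0.00859). Oas3 was at 7.21 and 6.08 CPM with baicalein and 3.88 and 2.70 CPM with saline (log2 fold change 1.01, SE 0.28, edgeR adjusted p = 0.0407). Each of these genes was higher in both baicalein livers than in either saline liver, as were 29.7% of all genes tested.

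Oasl1, which in mouse holds back the translation of Irf7, was the 1 member of the role that did not rise. It had 204 and 274 counts with baicalein and 433 and 242 with saline, or 14.0 and 13.6 CPM in baicalein livers and 25.4 and 17.6 CPM in saline livers (log2 fold change -0.64, SE 0.18, edgeR adjusted p = 0.0540). Saline 1, a liver with muscle transcripts, was the highest of the 4. Oasl1 and Oasl2 are neighbours on chromosome 5, at 114923240 to 114937915 and 114896936 to 114912234.

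The Oasl2 call held in every alternative. Oas1a was lost without baicalein 1 (edgeR adjusted p = 0.0522), Oas2 without baicalein 1 or baicalein 2 (0.0645 and 0.0690), and Oas1g and Oas3 with any 1 liver left out (up to 0.137 and 0.233) and with DESeq2 (0.0529 and 0.125), Oas3 also with limma-voom (0.0798), while Oasl1 passed without saline 2 (0.00646).

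The IFIT proteins bind foreign RNA ends and block its translation. Ifit3 (chromosome 19, 34583531 to 34588731) had 276 and 426 counts in baicalein livers and 221 and 176 in saline livers. It rose to 19.0 and 21.2 CPM with baicalein, against 13.0 and 12.8 CPM with saline (log2 fold change 0.64, SE 0.13, edgeR adjusted p = 0.0115). Its near copy Ifit3b was at 5.43 and 5.83 CPM with baicalein and 2.70 and 3.57 CPM with saline (log2 fold change 0.845, SE 0.28, edgeR adjusted p = 0.0744).

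Ifit2 was at 6.04 and 5.33 CPM with baicalein and 3.58 and 3.06 CPM with saline (edgeR adjusted p = 0.0840), and Ifit1 at 5.98 and 4.93 CPM against 3.99 and 2.84 CPM (edgeR adjusted p = 0.162). All 4 IFIT genes lay higher in both baicalein livers, with log2 fold changes of 0.64 to 0.845, as did 29.7% of all genes tested. Ifit3, the most abundant of the 4 in CPM, was the 1 that passed. Ifit3 did not pass without saline 1, saline 2 or baicalein 2 (adjusted p = 0.0544, 0.0504 and 0.102, edgeR).

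Of 5 nucleic acid sensors, 1 passed. Dhx58, encoding LGP2, a RIG-I-like receptor without a signalling domain, fell. It had 162 and 182 counts in baicalein livers and 321 and 215 in saline livers, or 11.1 and 9.07 CPM with baicalein and 18.9 and 15.7 CPM with saline (log2 fold change -0.78, SE 0.16, edgeR adjusted p = 0.0139). Ddx58, encoding RIG-I itself, was at 53.6 and 53.4 CPM with baicalein and 50.2 and 48.5 CPM with saline, a log2 fold change of 0.115 (SE 0.09, edgeR adjusted p = 0.434). Ifih1, encoding MDA5, overlapped at 19.7 and 19.0 CPM with baicalein and 21.7 and 18.4 CPM with saline.

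Eif2ak2, the RNA-activated kinase PKR, was at 8.10 and 8.07 CPM with baicalein and 7.81 and 6.05 CPM with saline (edgeR adjusted p = 0.531). Zbp1, a sensor of Z-form nucleic acids, was at 17.0 and 15.9 CPM with baicalein and 13.7 and 12.02 CPM with saline (edgeR adjusted p = 0.125). The Dhx58 call was lost without saline 1 or baicalein 2 (edgeR adjusted p = 0.0821 and 0.114). GENCODE M21 lists an antisense gene, Dhx58os, over 2637 bases of it.

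ISG15 is a ubiquitin-like protein that is attached to other proteins, in mouse by the ligase HERC6, and removed by USP18. Isg15 was at 17.1 and 13.6 CPM in baicalein livers and 12.9 and 12.8 CPM in saline livers (log2 fold change 0.26, SE 0.15, edgeR adjusted p = 0.307). Usp18 overlapped between groups, at 21.02 and 15.7 CPM with baicalein and 18.8 and 19.4 CPM with saline, and so did Herc6, at 4.40 and 5.23 CPM against 4.46 and 4.37 CPM. None of the 3 passed.

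Of 13 further effectors, 1 rose. Ifi44, a gene of uncertain biochemical role that viral infection induces, had 101 and 171 counts in baicalein livers and 46 and 53 in saline livers. It stood at 6.94 and 8.52 CPM with baicalein and 2.70 and 3.86 CPM with saline (log2 fold change 1.24, SE 0.27, edgeR adjusted p = 0.0160). Its call was lost without saline 1, baicalein 1 or baicalein 2 (edgeR adjusted p up to 0.129).

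Several effectors leaned the other way without passing. Cmpk2, a mitochondrial nucleotide kinase, was at 9.07 and 8.47 CPM with baicalein and 14.2 and 10.4 CPM with saline (edgeR adjusted p = 0.119). Its neighbour Rsad2, encoding the antiviral enzyme viperin, overlapped at 11.1 and 12.4 CPM with baicalein and 15.1 and 11.4 CPM with saline. Parp14, an ADP-ribosyltransferase, was at 33.6 and 40.7 CPM with baicalein and 45.3 and 45.9 CPM with saline (edgeR adjusted p = 0.111).

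Trim30a, a tripartite motif protein, was at 9.68 and 10.6 CPM with baicalein and 7.10 and 7.28 CPM with saline (edgeR adjusted p = 0.0912), and Samd9l, which restrains viral translation, at 4.05 and 4.68 CPM against 2.82 and 2.62 CPM (edgeR adjusted p = 0.160). Mx1, a dynamin-like GTPase, was at 4.53 and 3.99 CPM with baicalein and 2.23 and 3.57 CPM with saline (edgeR adjusted p = 0.309). Mx2, which GENCODE M21 annotates as a polymorphic pseudogene, Bst2, Ifi35 and Xaf1 overlapped between groups. Ifi27 and Rtp4 had log2 fold changes of 0.12 and 0.23 and did not pass. The effector group therefore held 8 members above 0 and 5 below 0, with a median log2 fold change of 0.12.

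**Figure D2:**
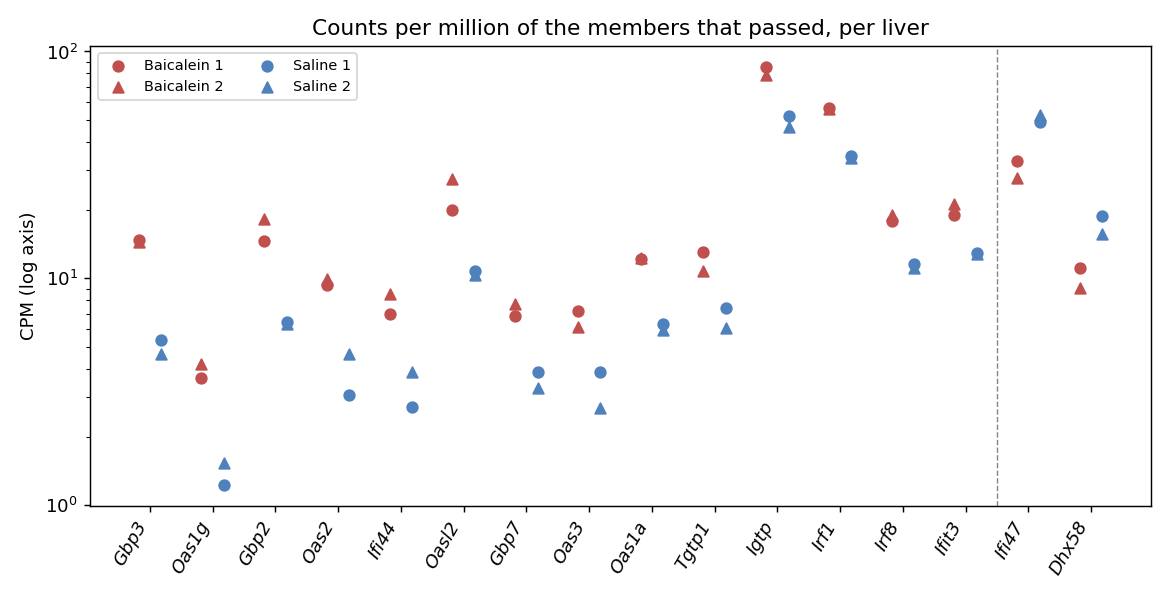
CPM (log axis) of the 16 members that passed, in each of the 4 livers, ordered by log2 fold change; red symbols are baicalein livers and blue symbols saline livers, and the dashed line parts the 14 that rose from the 2 that fell. The groups do not overlap for any of the 16, which their choice by the test in part fixes, and 59.2% of all genes tested did not overlap. Igtp is the most abundant that rose, at 85.6 and 78.4 CPM with baicalein and 51.8 and 46.3 CPM with saline.

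Levels of different genes were set side by side as deposited FPKM, the scale that accounts for gene length. Bst2, encoding tetherin, which holds budding virus at the cell surface, was the most abundant member, with a mean of 160.5 FPKM in baicalein livers and 160.8 FPKM in saline livers. Ifi27 followed at 57.6 FPKM with baicalein and 50.3 FPKM with saline, and Iigp1, Irgm2 and Igtp had means of 32.6 to 33.7 FPKM over the 4 livers. At the other end Herc6 averaged 0.535 FPKM with baicalein and 0.462 FPKM with saline. Gbp3 and Gbp2, which had the smallest p-values of the members, had means over the 4 livers of 3.04 and 4.604 FPKM. The most abundant members, Bst2 and Ifi27, were not among those that passed.

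The further interferon-stimulated genes outside the 46 were read from the same fit. Of 73 tested, 15 rose, 3 fell and 55 did not pass. The share that rose was 20.55%, where 7.65% of all genes tested rose and 7.9% fell. Their log2 fold changes had a median of 0.31, against 0.01 over all genes. The list was chosen with earlier results of these data known. Shisa5 (log2 fold change 0.71, SE 0.09), Sp100 (0.83, SE 0.12), a nuclear body protein, and Psmb9 (0.72, SE 0.11), a subunit of the immunoproteasome, rose in every alternative, and Dtx3l (-0.69, SE 0.09), a ubiquitin ligase that pairs with PARP9, fell in every alternative.

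The other genes of that list that rose were Ifitm1, Ifi27l2a, Ifi204, Gbp9, Gbp11, Slfn5, Parp11, Uba7, Xdh, Psmb8, Psmb10 and Samhd1, and those that fell were Helz2 and Tor1aip2. Each of these 14 lost its call without at least 1 liver (edgeR adjusted p up to 0.326, for Tor1aip2). Cxcl9, a chemokine that interferon gamma induces, was at 30.2 and 26.6 CPM in baicalein livers and 19.9 and 22.5 CPM in saline livers (edgeR adjusted p = 0.0547). Phf11d, Gbp4 and Ifi203 had log2 fold changes of 1.09, 0.98 and 0.76 and did not pass (edgeR adjusted p = 0.0592, 0.0640 and 0.0651).

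Siglech, a defining marker of plasmacytoid dendritic cells, had 13 and 7 counts with baicalein and 10 and 7 with saline. That list of 8 markers summed to 14.3 and 65.3 CPM with baicalein and 28.3 and 10.8 CPM with saline, and most of the sum in baicalein 2 was Ly6d, with 22 and 730 counts with baicalein and 17 and 13 with saline. Another gene of that list, Cox6a2, which muscle also expresses, had 4 and 319 counts with baicalein and 296 and 0 with saline. The 8 neutrophil markers summed to 12.4 and 4.98 CPM with baicalein and 4.05 and 4.95 CPM with saline. Of 5 tested neutrophil markers 1 passed, Ltf, with 21 and 42 counts with baicalein and 3 and 1 counts with saline (log2 fold change 3.71, SE 0.69, edgeR adjusted p = 0.00760).

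**Figure D3:**
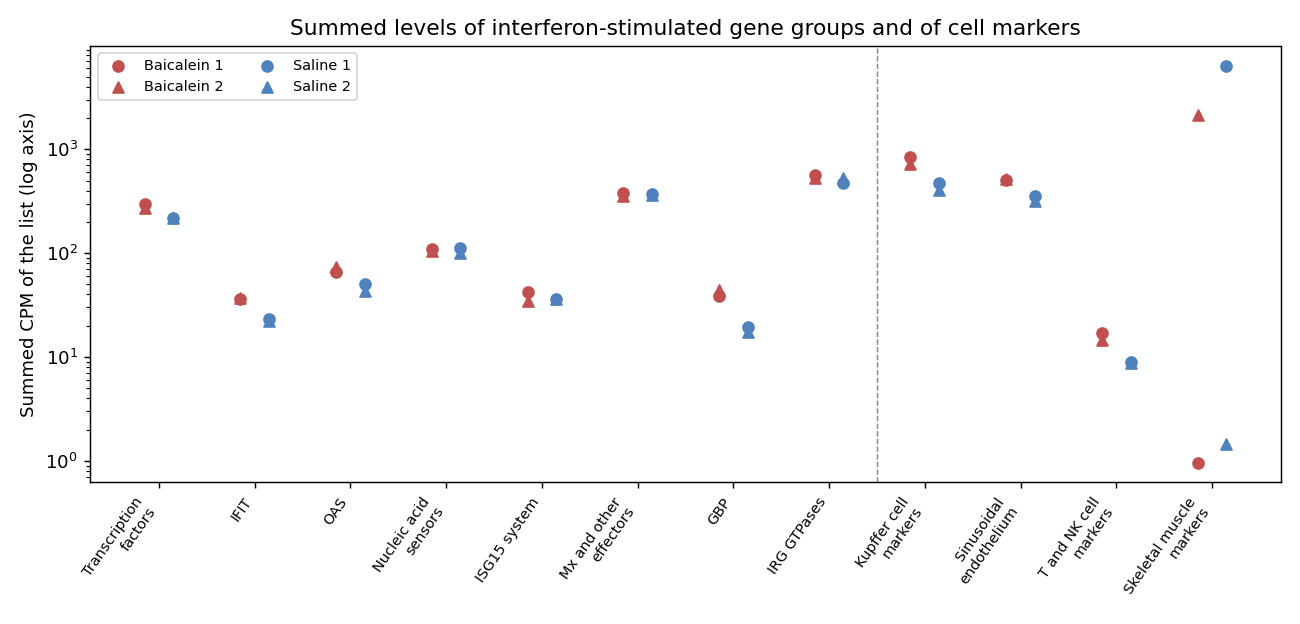
Summed CPM (log axis) of the 8 role groups of interferon-stimulated genes, left of the dashed line, and of 4 lists of cell markers, right of it, in each liver; red symbols are baicalein livers and blue symbols saline livers. The GBP sum was 38.7 and 44.1 CPM with baicalein and 19.5 and 17.4 CPM with saline, while the effector sum overlapped at 380 and 354 CPM against 370 and 362 CPM, and muscle markers were high in 1 liver of each group.

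Summed over all 46 members, the level was 1529 and 1452 CPM in baicalein livers and 1305 and 1325 CPM in saline livers. The OAS sum was 66.5 and 73.6 CPM with baicalein and 50.7 and 42.8 CPM with saline, and the IFIT sum 36.4 and 37.3 CPM against 23.2 and 22.3 CPM. The sensor and ISG15 groups overlapped, at 109 and 105 CPM against 112 and 101 CPM for the sensors. These sums weigh abundant genes most.

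Since muscle transcripts split each group, members were also compared between livers that both carried them and between livers that both lacked them. The muscle genes still summed to 2121 CPM in baicalein 2 and 6364 CPM in saline 1. Between the livers with muscle transcripts, 33 of 46 members were higher in baicalein 2 than in saline 1, with a median log2 ratio of CPM of 0.24. Between the livers without, 37 of 46 were higher in baicalein 1 than in saline 2, with a median of 0.38. The share of all genes higher in each pair was not taken, and each pair sets a single liver against a single liver. A general shift between the livers of a pair therefore cannot be told apart from a change in the members. All 16 members that passed had the same direction in both pairs, which their choice by the test in part fixes.

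With a liver left out fewer members passed, and such fits also have fewer degrees of freedom. The number that rose was 6 without baicalein 1, 7 without baicalein 2, 9 without saline 1 and 9 without saline 2. Those that passed in every fit were Gbp2, Gbp3, Igtp, Irf1 and Oasl2 among the genes that rose and Ifi47 among those that fell. Each of these 6 also passed with DESeq2 and limma-voom.

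**Figure D4:**
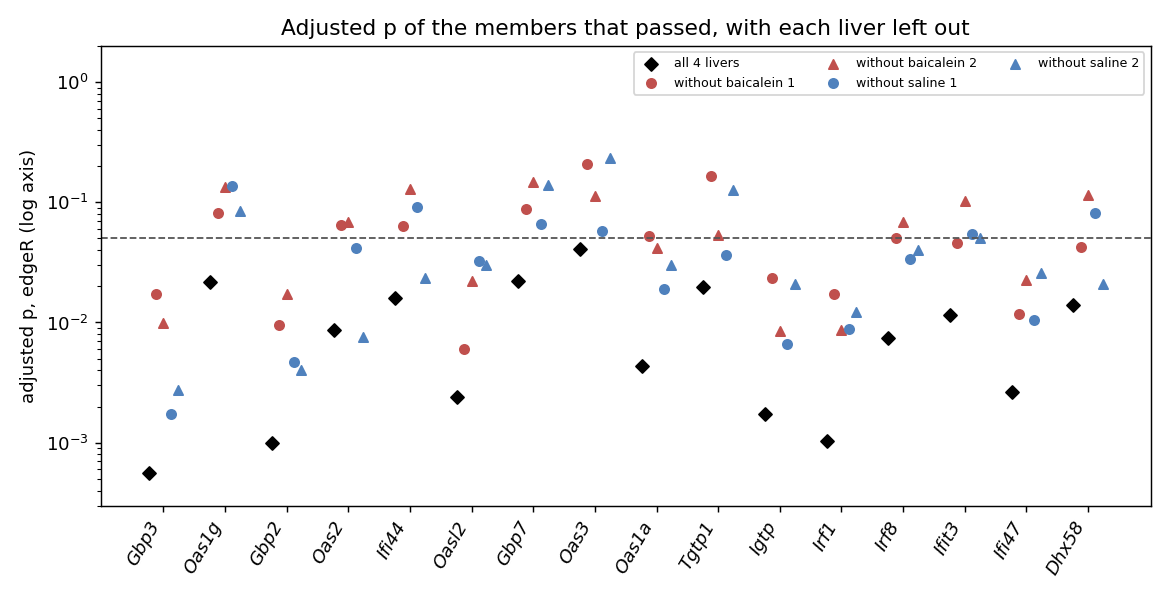
Adjusted p (edgeR, log axis) of the 16 members that passed, with all 4 livers (black) and with each liver left out (red for a baicalein liver, blue for a saline liver); the dashed line is the threshold of 0.05. All points of Gbp3, Gbp2, Oasl2, Igtp, Irf1 and Ifi47 lie below the line, and all 4 left-out points of Oas1g, Gbp7 and Oas3 lie above it.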

How the data were processed

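RNA was sequenced from 4 livers. The genome build was mm10, per the submitters' processing notes, and the sources used here do not give the aligner, the counter or its strand setting. Of 21902 gene IDs also in GENCODE M21 (mm10), 565 had the same start and end as in the deposited table, so positions printed here are from GENCODE M21 and from RefSeq (GRCm38.p6), not from the table. The authors deposited whole-number read counts per gene, used for every test. They also deposited FPKM, in which a count is divided by gene length and library total, used here only to set levels of different genes side by side.

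Genes were filtered with filterByExpr, which kept 12657 of 21959, TMM-normalised, and then compared in edgeR 4.0.16 (robust quasi-likelihood fit, R 4.3.3, two-sided), with Benjamini-Hochberg adjustment over all 12657 and a threshold of 0.05. CPM are counts scaled to a common TMM-normalised library size, and a standard error (SE) is the log2 fold change over the square root of F. In libraries of 13976440 to 18731616 counts, 3 counts equal 0.160 to 0.215 CPM, which covers counting error only. Livers of a group differed by more than sampling noise (chi-square per degree of freedom 18.7 with baicalein and 23.4 with saline). Alternatives were median-of-ratios size factors, DESeq2 1.42.0, limma-voom (limma 3.58.1), other filters, a block for the replicate number, and leaving out each liver.

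The 46 members and the further lists were chosen with earlier results of these data known. Named with values are all members past the threshold and, per role, the 4 others of smallest p. Mx1, Rsad2, Ifi27, Rtp4, Bst2, Tgtp2 and genes named for their FPKM were added after their values were seen. So were the further OAS and GBP genes that did not pass. Of the pathway and further lists, genes past the threshold and up to 4 others per list were named. Mb21d1, Mnda and Pyhin1 of these lists were not analysed here, and Tmem173 was matched by its gene ID to Sting1.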

Additional observations from a re-analysis of the deposited data

How the results depend on the processing

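The 46 members gave 506 values over 11 alternatives, of which 455 kept their call, 37 fell below the threshold and 14 passed where they had not, with no change of direction in a called value. Of the 16 called members, 5 that rose and 1 that fell passed in every alternative. With DESeq2 2 pathway genes and 8 further interferon-stimulated genes rose; with limma-voom 1, 9 and, over all genes, 632 rose. Over the livers left out in turn, members that rose numbered 6 to 9 and that fell 1 to 3, pathway genes 1 to 1 and 2 to 3, further genes 4 to 9 and 1 to 3, and all genes 522 to 665 and 535 to 663.

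With the replicate number as a block, 11 members rose and 2 fell, as did 1 and 2 pathway genes, 7 and 1 further genes, and 531 and 601 of all genes. Same-numbered livers deviated from their group means in opposite directions (r = -0.785 over 12657 genes), and nothing in the labels pairs them, so the block is not used beside the results. Crosswise pairs as a replicate block were chosen after seeing the data. With them 20 members rose and 5 fell, as did 7 and 6 pathway genes. So did 27 and 4 further genes, and 1809 and 1689 of all genes. Each of the 9 members that gained a call in any alternative gained it with these pairs. With 2 livers a group, an exact two-sided permutation test of a single gene cannot go below p = 0.333, and the causes of the lost calls were not tested.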
